A study of Mus musculus with 3 samples.

Results

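The Rab genes of the mouse were described here by the peaks that lay at them in ETV5 and H3K4me3 chromatin from alveolar type 2 (AT2) cells. Members were the protein-coding genes of the GRCm38.p6 RefSeq table whose symbol is Rab, then digits, then a letter or nothing. There were 59 of them among 21887 protein-coding genes on assembled chromosomes. Partner genes such as Rab3gap1 or Rab11fip1 were not members. AT2 cells, the surfactant-producing cells of the lung, came from C57BL/6 mice aged 10 to 12 weeks, with no other allele or treatment named. Chromatin was sequenced after precipitation with an ETV5 antibody (1 library), with an H3K4me3 antibody (1 library) and without one (1 input library). How many mice were pooled is not stated in the labels. ETV5 is an ETS family transcription factor, and H3K4me3 is the trimethylated histone mark found at the starts of active genes.

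Rab proteins are small GTPases that switch between a GTP-bound form on membranes and a GDP-bound form. Exchange factors load them with GTP, GTPase-activating proteins return them to GDP, GDI takes the GDP form off membranes, and effectors read the GTP form to tether, move or fuse vesicles. AT2 cells store surfactant in lamellar bodies, a lysosome-related organelle, and release it by regulated exocytosis, so both routes employ Rab proteins.

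The ETV5 list held 31165 peaks from 5715049 tags, and the H3K4me3 list 15134 peaks from 34907608 tags. A peak's fold enrichment is the number of fragments over its summit against the local input, as the authors' peak caller wrote it, and its pileup is that number of fragments. The median pileup was 13.0 in the ETV5 list and 185 in the H3K4me3 list, so weak ETV5 peaks rest on few fragments. With 1 library per antibody no difference could be tested against replicates, and every interval below is an exact 95% interval for counting error only. For pileups this is the counting of fragments, and for shares and medians that of genes, as if genes were drawn independently. H3K4me3 lay within 1 kb of the start of 10 of 10 AT2 marker genes, 4 of 5 AT1 markers and 3 of 4 ciliated cell markers. It lay at 0 of 18 markers of airway secretory, endothelial, leukocyte, mesenchymal and neuroendocrine cells. The part that other cells have in the results on Rab genes was not tested.

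Most Rab genes carried both ETV5 and H3K4me3. An ETV5 peak lay within 5 kb of 55 of 59 Rab genes (93.2%, 83.5% to 98.1%), and within 5 kb of 63.2% of all protein-coding genes. An H3K4me3 peak lay within 5 kb of 51 Rab genes (86.4%, 75.0% to 94.0%), against 59.8% of all genes. At 50 Rab genes (84.7%, 73.0% to 92.8%) an ETV5 peak overlapped an H3K4me3 peak by at least 1 bp, against 56.0% of all genes. The 4 Rab genes with no ETV5 peak were Rab3c, Rab9b, Rab39b and Rab44, and Rab3c was the only member of these that had H3K4me3. A wider gene offers more room for a peak within its window, and the median Rab gene spanned 23213 bp, against 17169 bp for all genes.

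The ETV5 signal sat at the gene start. A start is here a RefSeq transcription start where the promoter table gave one, which it did for 48 Rab genes. For the other 11 members (Rab2a, Rab4a, Rab7b, Rab18, Rab26, Rab27b, Rab30, Rab36, Rab37, Rab38 and Rab44) the nearer gene end was used, which may be the 3′ end. An ETV5 summit lay within 1 kb of the start of 53 Rab genes (89.8%, 79.2% to 96.2%), against 54.2% of all genes. Of the 48 members with a RefSeq start, 43 had one. An H3K4me3 peak reached within 1 kb of the start of 50 Rab genes (84.7%, 73.0% to 92.8%), against 53.7% of all genes. Where H3K4me3 was at the start, 49 of 50 Rab genes had ETV5 there too (98.0%, 89.4% to 99.9%), which is near the 92.7% seen over all genes with H3K4me3 there. These 49 count Rab26, which had ETV5 at one gene end and H3K4me3 at the other. Where it was not, 4 of 9 Rab genes had ETV5 (44.4%, 13.7% to 78.8%), against 9.60% of all such genes. Those 4 were Rab3b, Rab7b, Rab36 and Rab39.

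**Figure D1:**
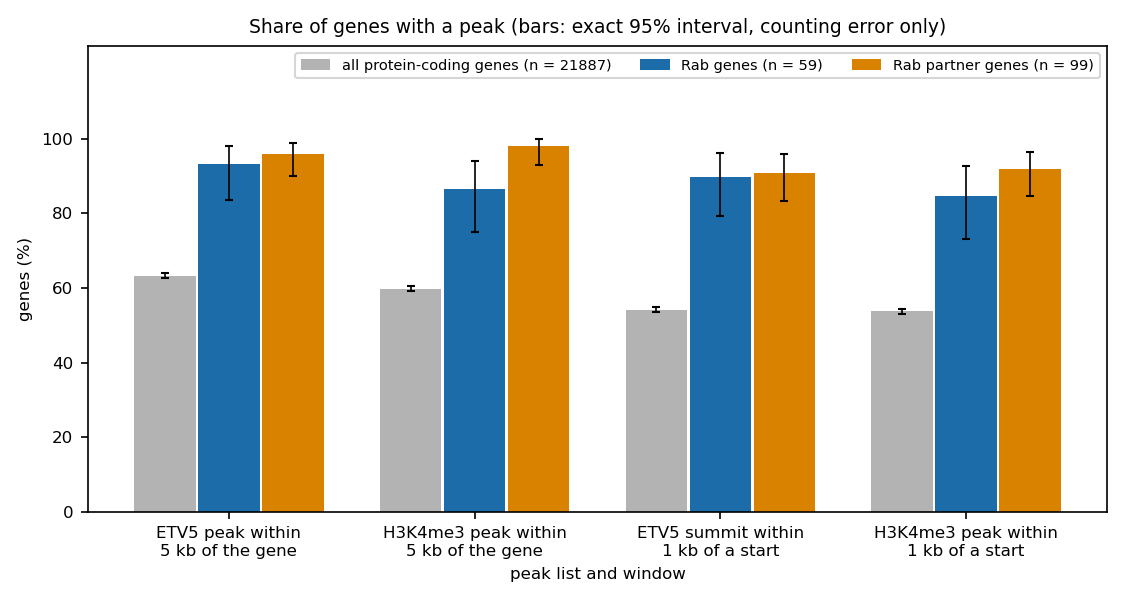
Share of genes (y axis, %) with a peak under each of 4 window rules (x axis), for all 21887 protein-coding genes, the 59 Rab genes and the 99 Rab partner genes; bars carry exact 95% intervals for counting error. Rab genes and their partner genes stand at 84.7% or more in every window, and all genes at 53.7% to 63.2%.

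The level of ETV5 at a Rab start was near that of other genes with a peak there. Among the 53 Rab genes with one, the median fold was 12.9 (quartiles 7.47 and 20.7), and it was 13.4 (8.24 and 22.5) among the 11871 such genes of the genome. The median pileup was 28.0 fragments at Rab starts and 29.0 at all starts. The H3K4me3 fold at the start had a median of 40.5 in 50 Rab genes and 34.7 in 11755 genes, and the H3K4me3 width a median of 1548 bp and 1447 bp. These medians leave out members with no peak. Between Rab genes the ETV5 fold ran from 3.63 at Rab39 to 44.5 at Rab11b.

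**Figure D2:**
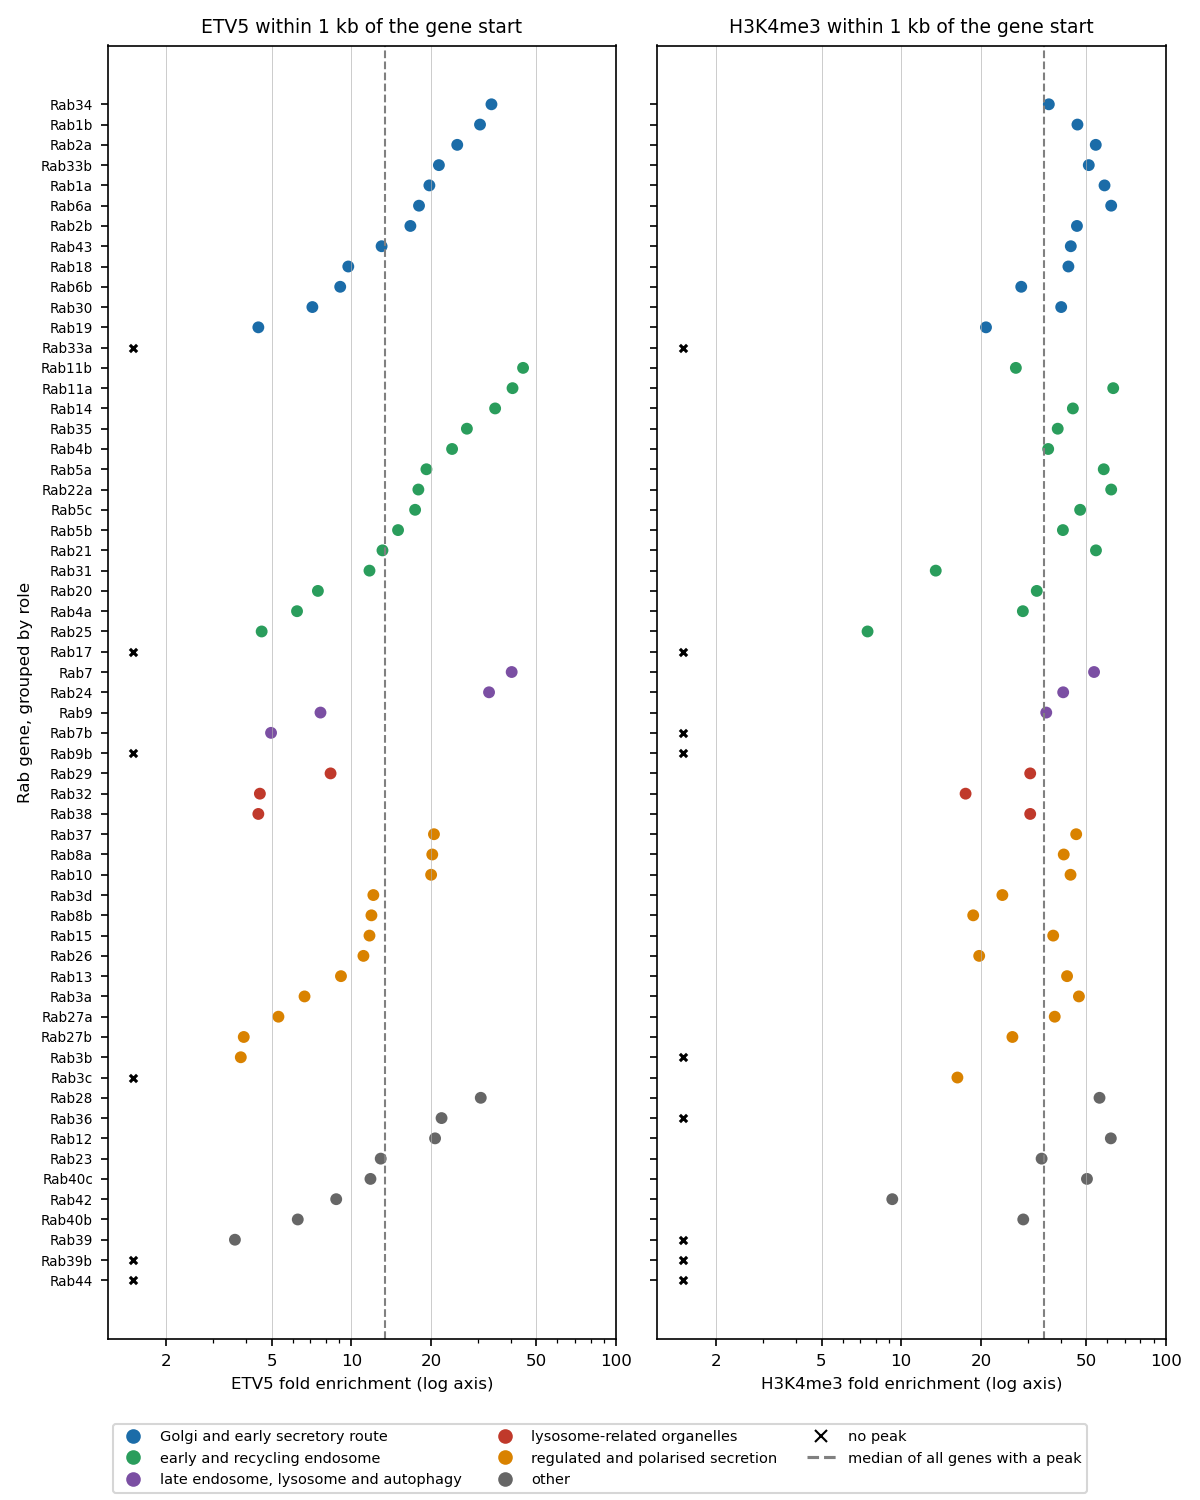
Fold enrichment of the highest ETV5 peak (left) and H3K4me3 peak (right) within 1 kb of the start of each of the 59 Rab genes, on log axes, grouped and coloured by role; crosses mark members with no peak there and dashed lines the medians of all genes with a peak (13.4 and 34.7). The 3 members of the lysosome-related organelle role stand at ETV5 folds of 4.45 to 8.34, left of the dashed line.

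The highest values were found among the Rab genes of early, recycling and late endosomes. Rab11b and Rab11a control traffic through the recycling endosome. Rab11b had an ETV5 fold of 44.5 and a pileup of 81 (64.3 to 101), 286 bp downstream of its start. Rab11a had a fold of 40.6 and a pileup of 124 (103 to 148), 64 bp upstream of its start. Rab7, which carries late endosomes to the lysosome, reached a fold of 40.3 with 98 fragments (79.6 to 119). Rab14, which links early endosomes with the trans-Golgi, stood at 34.9 with 92 fragments (74.2 to 113). Each of these 4 starts also carried H3K4me3, with folds of 27.1 at Rab11b, 63.2 at Rab11a, 53.5 at Rab7 and 44.5 at Rab14. The Rab11a value was the highest H3K4me3 fold of any Rab start.

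The sequences around the start were searched for ETS motifs. ETS factors recognise a GGAA core, with CCGGAA and CCGGAAGT as longer forms. The 300 bases from 250 before to 50 after the start are printed for the 3 members of highest ETV5 fold whose summit fell in the window at their most upstream RefSeq start (Rab11a, Rab24 and Rab28), and for 3 genes of lysosome-related organelles and secretion (Rab27a, Rab32 and Rab3d). The last 3 were chosen by name, with no rule on their values. All sequences are from RefSeq, GRCm38.p6, read 5′ to 3′ along the gene. Capitals mark CCGGAA on either strand (TTCCGG when read on the other strand). Rab11a is at chr9:64737707-64738006 on the minus strand, Rab24 at chr13:55321931-55322230 on the minus strand, Rab28 at chr5:41708130-41708429 on the minus strand, Rab27a at chr9:73044560-73044859 on the plus strand, Rab32 at chr10:10558158-10558457 on the minus strand and Rab3d at chr9:21918134-21918433 on the minus strand.
Rab11a: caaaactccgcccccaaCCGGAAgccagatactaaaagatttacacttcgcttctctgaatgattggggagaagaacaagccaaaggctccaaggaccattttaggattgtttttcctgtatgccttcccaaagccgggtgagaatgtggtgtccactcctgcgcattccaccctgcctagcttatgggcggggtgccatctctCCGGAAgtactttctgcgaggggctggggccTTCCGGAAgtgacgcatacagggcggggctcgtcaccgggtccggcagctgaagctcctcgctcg
Rab24: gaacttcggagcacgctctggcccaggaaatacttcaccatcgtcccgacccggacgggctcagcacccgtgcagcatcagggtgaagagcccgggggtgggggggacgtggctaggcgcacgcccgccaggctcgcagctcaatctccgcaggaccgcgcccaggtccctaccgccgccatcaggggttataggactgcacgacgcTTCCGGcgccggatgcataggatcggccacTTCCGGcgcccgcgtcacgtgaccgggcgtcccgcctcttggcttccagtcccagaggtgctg
Rab28: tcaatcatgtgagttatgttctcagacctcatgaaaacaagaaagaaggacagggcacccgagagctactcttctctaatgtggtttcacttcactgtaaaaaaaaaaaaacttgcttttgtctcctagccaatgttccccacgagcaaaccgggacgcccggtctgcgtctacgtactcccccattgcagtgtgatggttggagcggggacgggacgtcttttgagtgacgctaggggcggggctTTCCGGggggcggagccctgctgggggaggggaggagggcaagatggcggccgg
Rab27a: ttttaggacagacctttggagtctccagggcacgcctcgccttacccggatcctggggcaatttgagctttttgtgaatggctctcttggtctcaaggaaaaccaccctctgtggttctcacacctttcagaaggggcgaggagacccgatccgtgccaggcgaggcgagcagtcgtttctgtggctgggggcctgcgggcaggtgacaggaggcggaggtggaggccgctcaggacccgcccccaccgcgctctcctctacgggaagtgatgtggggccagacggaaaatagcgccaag
Rab32: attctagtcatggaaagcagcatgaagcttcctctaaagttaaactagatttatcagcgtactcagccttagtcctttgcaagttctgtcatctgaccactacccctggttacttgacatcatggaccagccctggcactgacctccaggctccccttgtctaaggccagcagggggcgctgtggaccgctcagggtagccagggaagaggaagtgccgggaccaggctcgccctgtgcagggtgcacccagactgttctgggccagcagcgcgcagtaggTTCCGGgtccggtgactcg
Rab3d: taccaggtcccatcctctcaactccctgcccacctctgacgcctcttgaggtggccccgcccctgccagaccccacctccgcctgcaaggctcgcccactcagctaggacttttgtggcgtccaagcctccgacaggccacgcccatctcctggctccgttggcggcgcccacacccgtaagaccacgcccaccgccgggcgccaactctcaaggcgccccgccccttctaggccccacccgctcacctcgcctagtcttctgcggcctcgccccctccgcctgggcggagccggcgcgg
Rab11a held 4 matches of CCGGAA, with first bases 233, 46, 15 and 13 bp before the start. The pair at 15 and 13 is the palindrome written in capitals near the end of the window, which counts once on each strand. Rab24 held 2, Rab28 held 1, and Rab32 held 1, which began 31 bp after the start. Rab27a and Rab3d held no match. The Rab32 and Rab3d summits, 87 and 141 bp downstream of the start, lay outside the printed windows. Of the same roles, Rab8a, Rab10 and Rab13 also held CCGGAA in a window. Rab29, Rab3a, Rab3b, Rab3c, Rab8b and Rab15 did not. A match is only a string of letters, and its absence says only that these letters are not in this window.

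Over the whole family the motif went with the summit as it did elsewhere. CCGGAA was found on either strand in 15 of 60 windows of the 48 Rab genes in the table (25.0%), and in 18.7% of all 21263 windows. Among the 21 Rab windows that held an ETV5 summit 9 had it (42.9%), against 45.0% of all windows with a summit. Of the 39 Rab windows without a summit 6 had it (15.4%), against 11.0%. Its median distance to the summit was 52.0 bp in those 9 windows. The median ETV5 fold was 30.8 in the 9 Rab windows with a summit and CCGGAA and 14.3 in the 12 with a summit and no CCGGAA, and 22.9 and 10.8 over all windows. CCGGAAGT, which contains CCGGAA, was in 2 Rab windows (3.33%) and in 5.15% of all. The core GGAA was in 57 of 60 Rab windows and in 95.7% of all windows, so it does not tell windows apart. The GC box GGGCGG was in 68.3% of Rab windows against 46.2% of all, CCAAT in 43.3% against 38.2%, and TATAAA in 6.67% against 12.6%.

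All 13 Rab genes of the Golgi and early secretory route had an ETV5 peak within 5 kb, against 63.2% of all genes. At the start 12 had one (92.3%, 64.0% to 99.8%), against 54.2% of all genes. These 12 also had H3K4me3 there, and 92.7% of all genes with that mark at the start had ETV5. The median fold was 17.3, against 13.4 for all genes with ETV5 at the start. Rab34, which acts at the Golgi and in lysosome positioning, stood at 33.8 with 89 fragments (71.5 to 110), 8 bp from a start. Rab1b and Rab1a, which drive transport from the endoplasmic reticulum to the Golgi, had folds of 30.6 with 59 fragments (44.9 to 76.1) and 19.7 with 52 (38.8 to 68.2). Rab2a and Rab2b, which act between the same compartments, had 25.1 with 45 fragments (32.8 to 60.2) and 16.7 with 40 (28.6 to 54.5). H3K4me3 folds at these 5 starts were 36.1 at Rab34, 46.3 at Rab1b, 58.6 at Rab1a, 54.3 at Rab2a and 46.1 at Rab2b. Rab6a, which returns Golgi proteins to the endoplasmic reticulum, stood at 18.0 and Rab33b, a Golgi Rab with a part in autophagy, at 21.4. Rab18, known from lipid droplets, had 9.73, Rab43 13.0, Rab6b 9.07, Rab30 7.12 and Rab19 4.45. Their H3K4me3 folds ran from 20.9 at Rab19 to 62.1 at Rab6a. The Rab6a H3K4me3 summit lay 510 bp from the Rab6a start and 205 bp from that of Mrpl48. Rab33a had neither mark at its RefSeq start. Its only ETV5 peak, of fold 6.68, lay just inside the outer end of the gene model, 5506 bp upstream of that start and 216 bp from the start of Aifm1.

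All 15 Rab genes of early and recycling endosomes had an ETV5 peak within 5 kb, against 63.2% of all genes. At the start 14 had one (93.3%, 68.1% to 99.8%), against 54.2% of all genes. These 14 also had H3K4me3 there, and 92.7% of all genes with that mark at the start had ETV5. The median fold was 17.6, against 13.4 for all genes with ETV5 at the start. Below Rab11b, Rab11a and Rab14 came Rab35, a Rab of fast recycling, at 27.3 and Rab4b, of the same route, at 24.0. Rab5a, Rab5c and Rab5b, which drive fusion of early endosomes, had folds of 19.2, 17.4 and 15.0. Rab22a stood at 17.9, Rab21, known from integrin uptake, at 13.1, Rab31 at 11.7, Rab20 at 7.47 and Rab4a at 6.23. Rab25, the epithelial relative of Rab11, was the lowest of them at 4.58 with 15 fragments (8.40 to 24.7). Its H3K4me3 peak was also the weakest at any Rab start, at a fold of 7.46. Rab17, another Rab of polarised epithelia, had no H3K4me3 within 5 kb and no ETV5 summit within 1 kb of its RefSeq start. A small ETV5 peak of fold 3.76 with 9 fragments overlapped the outer end of the Rab17 gene model, 2005 bp upstream of that start, and a peak of 9.62 lay 829 bp from the start of Prlh.

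Among the 5 Rab genes of late endosomes, lysosomes and autophagy, the levels fell into separate ranges. Rab7 had a fold of 40.3 and Rab24, of autophagy, 33.1 with 67 fragments (51.9 to 85.1) beside H3K4me3 of fold 40.9, while Rab9, which moves receptors from late endosomes to the Golgi, had 7.64 with 13 fragments (6.92 to 22.2) beside H3K4me3 of fold 35.3. The Rab24 summit lay 76 bp upstream of Rab24 and 1 bp from the start of Prelid1, so the peak cannot be assigned to either gene. Rab7b had 4.97 with 9 fragments (4.12 to 17.1), 704 bp from a gene end, and no H3K4me3. Rab9b had neither mark within 5 kb.

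The 3 Rab genes of lysosome-related organelles had low ETV5 folds. Rab38 and Rab32 act in the making of melanosomes and other lysosome-related organelles, and loss of Rab38 is known to disturb lamellar bodies in rodents. Rab38 had a fold of 4.45 with 9 fragments (4.12 to 17.1), in a peak at chr7:88430176-88430425 with its summit 28 bp from a gene end. Rab32 had 4.51 with 11 fragments (5.49 to 19.7) at chr10:10558009-10558226, 87 bp downstream of its start. Rab29, which recruits the kinase LRRK2, had 8.34 with 16 fragments (9.15 to 26.0), 52 bp downstream. Their H3K4me3 folds were 30.7, 17.5 and 30.7, below the 34.7 median of all genes with H3K4me3 at the start. These intervals lie below the pileups of Rab11a, Rab11b, Rab7 and Rab14 and overlap each other. Lrrk2 itself, an effector of Rab29, had an ETV5 fold of 6.76 at its start and an H3K4me3 peak of 5667 bp, the widest at the start of any of the partner genes.

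Of the 13 Rab genes of regulated and polarised secretion, 12 had ETV5 at the start (92.3%, 64.0% to 99.8%), against 54.2% of all genes. Where H3K4me3 was at the start, 11 of 12 had ETV5 too, counting Rab26, against 92.7% of all such genes. The median fold was 11.4, against 13.4 for all genes with ETV5 at the start. Rab37, known from mast cell secretion, had 20.5 with 42 fragments (30.3 to 56.8), and Rab8a, of apical transport, 20.2 with 57 (43.2 to 73.9). Rab10, of basolateral transport, had 48 fragments (35.4 to 63.6). H3K4me3 folds at these 3 genes were 45.8, 41.1 and 43.6. The Rab37 peak lay 138 bp from the start of Slc9a3r1 and at a gene end of Rab37 that may not be its start. Rab3d, found on secretory granules, had 12.1 with 27 fragments (17.8 to 39.3), 141 bp downstream of its start. The H3K4me3 peak there had a fold of 24.1 with 249 fragments. Rab8b stood at 11.9 with 22 fragments (13.8 to 33.3) and Rab15 at 11.7 with 21 (13.0 to 32.1), beside H3K4me3 folds of 18.7 and 37.5. Rab13, a Rab of tight junctions, had 9.13 with 29 fragments (19.4 to 41.6) beside H3K4me3 of fold 42.3. Both of these Rab13 peaks were nearest the start of Rps27. At another Rab13 start the ETV5 fold was 8.19 with 14 fragments, beside H3K4me3 of fold 12.9. Rab26, of exocrine granules, had 11.1 with 25 (16.2 to 36.9). The Rab26 summit lay 37 bp from a gene end and outside H3K4me3, which was found at the other end with a fold of 19.7. That H3K4me3 summit lay 595 bp from the Rab26 end and 521 bp from a start or end of Traf7.

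The Rab27 genes, whose products dock secretory lysosomes at the plasma membrane, had weak ETV5 at the start beside plain H3K4me3. Rab27a had a fold of 5.30 with 12 fragments (6.20 to 21.0), 107 bp upstream of its start, beside an H3K4me3 peak of fold 38.0 and 2299 bp. Its highest ETV5 peak, at 14.0 with 42 fragments, lay in the gene body at chr9:73089269-73090166, 25630 bp from the nearest Rab27a start and outside H3K4me3. Rab27b had 3.92 with 7 fragments (2.81 to 14.4), 485 bp from a gene end, and H3K4me3 of fold 26.3. It had 4 further ETV5 peaks inside the gene with folds up to 7.79. The highest of them lay in a second H3K4me3 peak, of fold 7.65 and 1737 bp.

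Rab3a, of synaptic vesicles, had 8 ETV5 peaks within 5 kb, as many as Rab37 and more than any other Rab gene, where the median was 2.00. The Rab3a peaks 3969 and 6143 bp downstream were nearest Mpv17l2, and several Rab37 peaks, the highest among them, were nearest Slc9a3r1. The start peak of Rab3a had a fold of 6.65 with 18 fragments (10.7 to 28.4) beside an H3K4me3 fold of 46.9. The highest of the 8, at 15.5, lay 2242 bp upstream and outside H3K4me3. Rab3b, its neuronal and endocrine relative, had only a peak of fold 3.82 with 6 fragments (2.20 to 13.1) and no H3K4me3. Rab3c, also of synaptic vesicles, was the reverse, with H3K4me3 of fold 16.3 and 1686 bp at its start and no ETV5 peak. A weaker ETV5 signal there may not be detectable at this depth.

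The 10 members outside these roles spanned nearly the whole range. Rab28, which has a part in cilia, had a fold of 30.8 with 57 fragments (43.2 to 73.9), 89 bp upstream of its start, beside H3K4me3 of fold 56.1. Rab36 had 21.9 with 62 fragments (47.5 to 79.5) at chr10:75036896-75037404, 198 bp from a gene end, with no H3K4me3 within 5 kb. It was the highest ETV5 value at any Rab start without the mark, where the other 3 had at most 9 fragments. Rab12 had 20.7 with 37 fragments (26.1 to 51.0) beside H3K4me3 of fold 61.9. Rab23, a regulator of hedgehog signalling, had 12.9, Rab40c 11.8, Rab42 8.76, Rab40b 6.27 and Rab39 3.63, the last with 6 fragments (2.20 to 13.1) and no H3K4me3. Rab39b, expressed in neurons, and Rab44 had neither mark within 5 kb.

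ETV5 levels differed between close paralogs in part of the families. How often unrelated genes differ as much was not tested. A family is here the members whose symbols share the same number, so relatives with another number are not counted together. Rab25, the relative of Rab11 with a fold of 4.58 and 15 fragments, is thus not set beside Rab11a and Rab11b. By this rule there were 14 families of at least 2 members, with 31 genes between them, and 11 had ETV5 at the start of at least 2. In 6 of the 11 the pileup intervals of the members with the highest and the lowest fold did not overlap. Rab4b had 88 fragments (70.6 to 108) and Rab4a 13 (6.92 to 22.2), a fold ratio of 3.86 where the H3K4me3 folds differed by a ratio of 1.25. Rab7 was 8.12 times Rab7b in fold, Rab3d 3.17 times Rab3b, Rab6a 1.98 times Rab6b and Rab8a 1.69 times Rab8b. H3K4me3 was lower as well at the weaker gene of the last 2 pairs, with ratios of 2.19 and 2.20, and was missing at Rab7b and Rab3b. Rab11b and Rab11a gave opposite orders, with the higher fold at Rab11b by a ratio of 1.10 and the higher pileup at Rab11a. In the Rab1, Rab2, Rab5, Rab27 and Rab40 families the intervals overlapped, with fold ratios of 1.27 to 1.88. Overlapping intervals do not show that these genes had the same level.

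**Figure D3:**
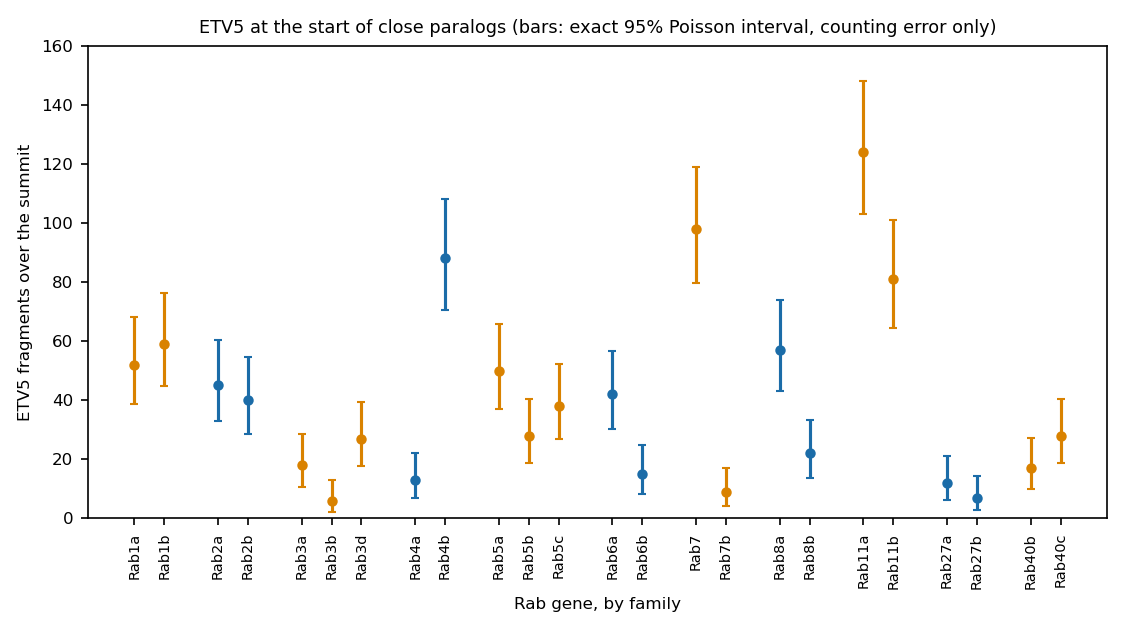
ETV5 fragments over the summit at the start (y axis) of Rab genes from the 11 families with at least 2 such genes (x axis); bars are exact 95% Poisson intervals for counting error, and colours alternate between families. Rab4b at 88 and Rab4a at 13 stand apart, while Rab1a at 52 and Rab1b at 59 overlap.

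ETV5 and H3K4me3 levels went together across Rab starts. Spearman's rho between the folds was 0.58 over the 49 Rab genes with both and 0.43 over the 10898 genes with both, and with the width of the H3K4me3 peak it was 0.19 and 0.35. The 49 include Rab26, whose 2 peaks lay at opposite ends of the gene. Without it, a choice made after the values were seen, rho over the other 48 was 0.58. These are descriptions across genes that share the same libraries, and genes are not independent replicates. Rab11b lay apart from the trend, with the highest ETV5 fold and an H3K4me3 fold of 27.1. In fragments its H3K4me3 was not low, at 259, close to the 261 at Rab8a, where the H3K4me3 fold was 41.1. Rab3a and Rab27a lay on the other side of the trend, with ETV5 folds of 6.65 and 5.30 beside H3K4me3 folds of 46.9 and 38.0.

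**Figure D4:**
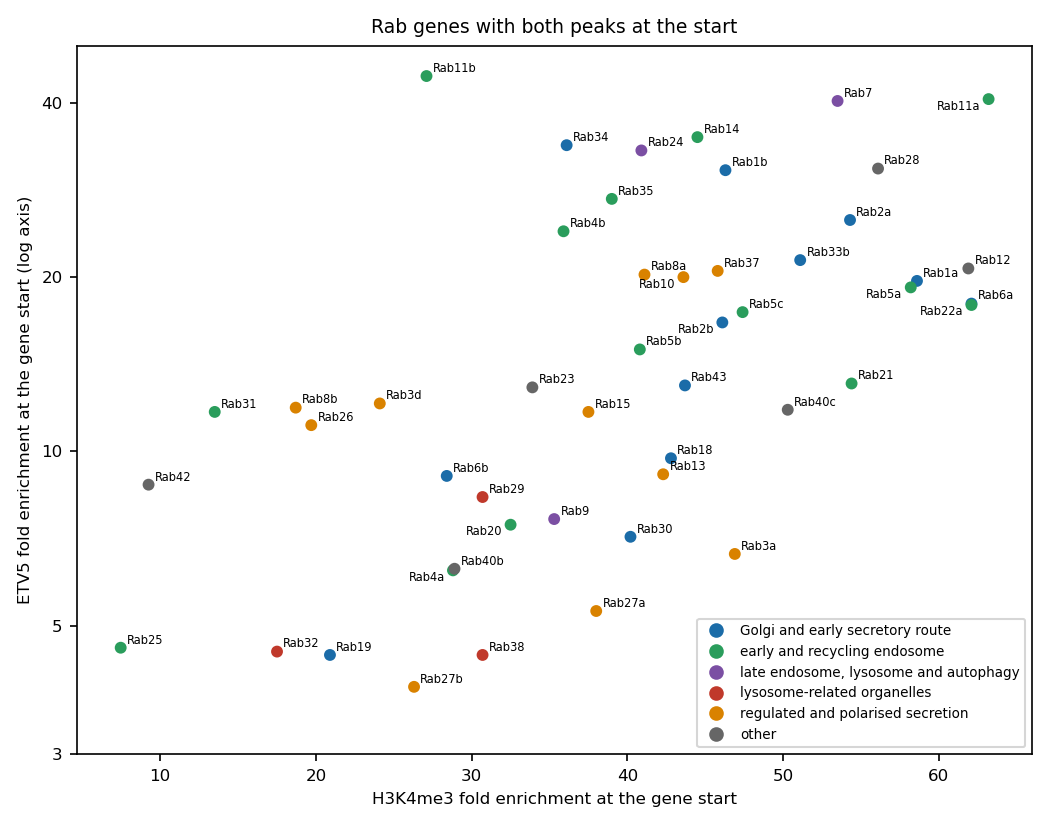
ETV5 fold enrichment (y axis, log) against H3K4me3 fold enrichment (x axis, linear) at the start of the 49 Rab genes with both peaks, coloured by role, 1 point per gene (for Rab26 the peaks lie at opposite gene ends). Rab11b stands top left of the bulk at 44.5 and 27.1, and Rab11a top right at 40.6 and 63.2.

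The ETV5 summit lay close to the start and the H3K4me3 summit further into the gene. Among the 43 Rab genes with a RefSeq start and ETV5 there, the summit was downstream in 28, upstream in 14 and on the start base in 1, Rab5a, with a median of 66.0 bp downstream, against 42.0 bp over all genes. The H3K4me3 summit had a median of 206 bp downstream in 42 Rab genes and 208 bp over all genes. It was further downstream than the ETV5 summit in 33 of 41 Rab genes with both, against 70.5% of 8899 genes. The exceptions included Rab2b, Rab13 and Rab24, whose H3K4me3 summits lay 417, 319 and 264 bp upstream of the nearest start of the member. Each summit was measured from its own nearest start. At Rab3a and Rab23, also among the exceptions, these were different starts, and the H3K4me3 summit lay further along the gene than the ETV5 summit.

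**Figure D5:**
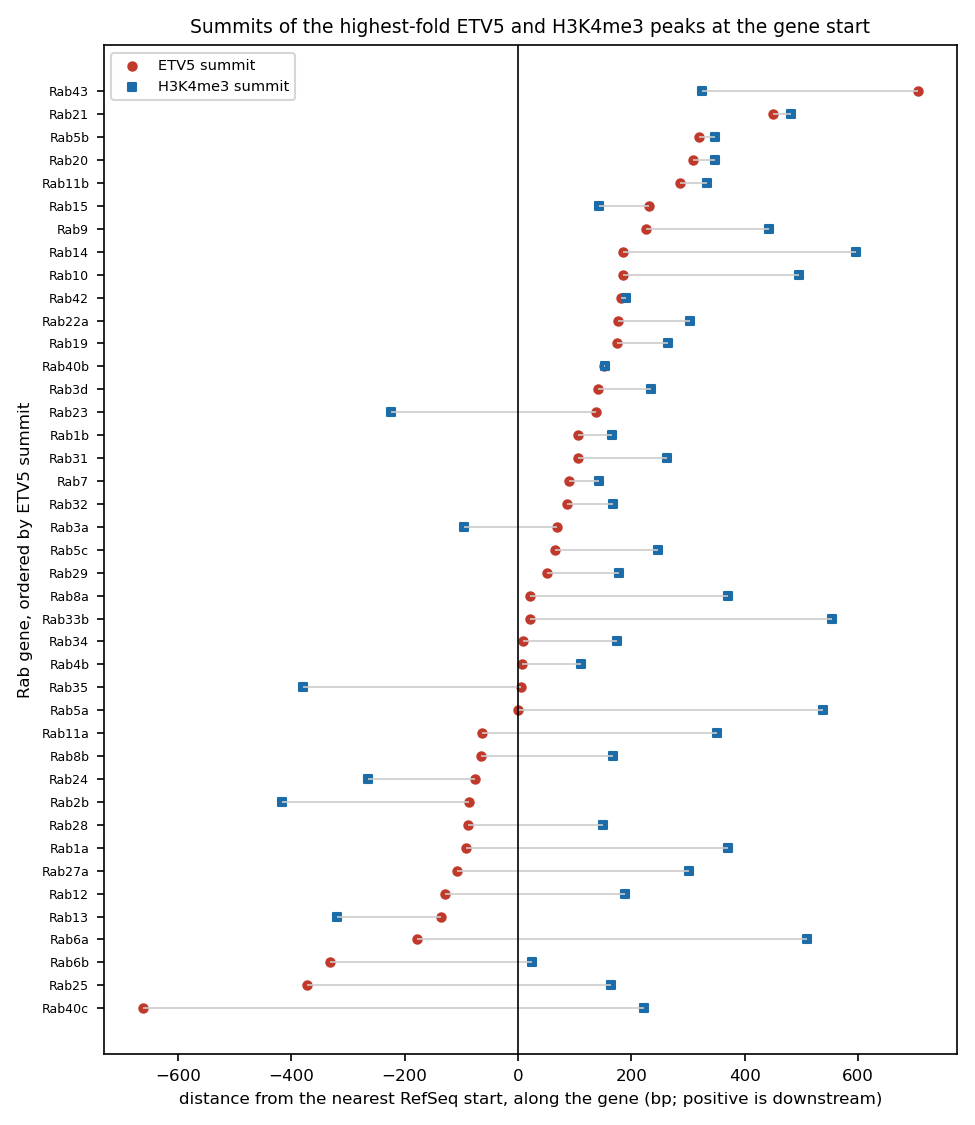
Distance along the gene (x axis, bp, positive downstream) from the nearest RefSeq start to the ETV5 summit (red circles) and the H3K4me3 summit (blue squares) for 41 Rab genes with both, ordered by the ETV5 summit. The H3K4me3 square lies to the right of the circle in 33 of the 41.

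Not every ETV5 peak within 5 kb of a Rab gene was nearest to that gene. Of 130 such peaks, 55 had their summit at a RefSeq start of the member, 13 at a gene end, 30 in the gene body and 32 outside, and 42 were nearer the start of another gene. For 14 members this held for the highest peak. The strongest was at Rab40b, where a peak of fold 61.0 with 136 fragments lay 33832 bp from the Rab40b start and 28 bp from the start of Wdr45b, while the Rab40b start had 6.27. A peak of 42.7 near Rab25 lay 45 bp from the start of Lamtor2, one of 38.7 near Rab2b 10 bp from Chd8, one of 32.0 near Rab19 59 bp from Slc37a3, and one of 26.2 near Rab26 96 bp from Traf7. The values at the start given above leave out the peaks named here. The start values of Rab5b, Rab13, Rab24 and Rab37 come from peaks that are themselves nearest another gene. At 5 members (Rab2b, Rab6a, Rab13, Rab24 and Rab37) the summit at the start itself lay within 1 kb of the RefSeq start of another gene. The Rab5b summit lay 60 bp from an end of Pmel, for which the promoter table gave no start, and 320 bp from the Rab5b start.

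Most genes for regulators and effectors of Rab proteins also had both ETV5 and H3K4me3. Of 99 listed partner genes, 95 had ETV5 within 5 kb (96.0%, 90.0% to 98.9%), against 63.2% of all genes, and 97 had H3K4me3 there (98.0%, 92.9% to 99.8%), against 59.8%. At the start 90 had ETV5 (90.9%, 83.4% to 95.8%), against 54.2% of all genes, with a median fold of 14.2. Differences from the Rab genes were not tested, and the partner genes were longer, with a median of 51626 bp against 23213 bp. All 7 GDI, escort and prenylation genes had a peak, led by Gdi2, a GDI, at 59.6 with 97 fragments, Rabggta, a prenyltransferase subunit, at 31.8 with 59, and Rabif at 29.7 with 78. Their H3K4me3 folds at the start were 50.8, 30.6 and 39.9. All 29 exchange factors had one, with Rgp1, a Rab6 exchange factor subunit, at 49.7 with 121 fragments in a peak nearest the start of Gba2, and Madd, the Rab3 and Rab27 exchange factor, at 42.9 with 131. Their H3K4me3 folds were 45.7 and 46.7. The 68.2 peak within 5 kb of Dennd1c was nearest Crb3. All 26 GTPase-activating proteins had one, with Rabgap1 at 98.0 and Tbc1d13 at 44.4 with 108 fragments, beside H3K4me3 folds of 45.0 and 31.1. The 41.7 peak near Tbc1d10c was nearest Ppp1ca, and the Tbc1d10c start had an ETV5 fold of 5.05 and an H3K4me3 fold of 50.5. Of 37 effectors 33 had one, with Appl2, a Rab5 effector, at 90.9, Rbsn, another, at 49.6 with 105 fragments, and Rab11fip1, of Rab11, at 40.2 with 107. Their H3K4me3 folds were 37.3, 52.3 and 52.1. Rabgap1 and Appl2, each with 159 fragments (135 to 186), stood above every Rab start in fold and in fragments. Their interval overlaps that of Rab11a, with 124 fragments (103 to 148). Gdi2, Rgp1 and Rbsn were also above the highest Rab fold, 44.5 at Rab11b. The exchange factors Madd and Mon1b were also above Rab11a in fragments. The 4 partner genes with no ETV5 peak were Bicd1, Rph3a, Sytl4 and Sytl5, of which Rph3a, Sytl4 and Sytl5 encode Rab3 or Rab27 effectors. Other listed effectors of Rab3 or Rab27, such as Rph3al, Sytl1, Sytl2, Mlph, Rims1 and Unc13d, did have an ETV5 peak within 5 kb.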

How the data were processed

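ETV5 and H3K4me3 were each profiled by ChIP-seq in 1 library of mouse AT2 cells, beside 1 input library whose reads were not analysed here. The antibody in the labels set the group of each sample. MACS2 2.1.0.20150420 called the peaks of each library separately, per the file headers and the submitters' processing notes, at a q-value threshold of 0.05 with 1 tag kept per position. The read aligner was not given in the sources used. Per the file headers, the pileup signal counts fragments over the summit. The fold enrichment ratio of a peak was used as the authors deposited it and sets the pileup against the local input, after adding 1 to each. The deposited −log10 q-value served for a stricter threshold, and the deposited −log10 p-value was not used. ETV5 used tags of 75 bp against 27495486 input tags and H3K4me3 tags of 50 bp against 44758677, and per the file headers the ETV5 input carries another name than the listed input.

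The labels name mm9, but 73.3% of H3K4me3 summits lay within 1 kb of a start or gene end of the GRCm38.p6 RefSeq table, so that build was used. Starts were matched for 17492 of 21887 genes, with the gene ends used for the rest. RefSeq promoter windows were searched on both strands. Overlaps, exact Clopper-Pearson and Poisson intervals (95%) and figures were made with Python 3.11.15, numpy 2.4.6, pandas 2.3.3, scipy 1.17.1 and matplotlib 3.10.9, and the assignment was tested on simulated data.

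The members, roles, partner list and markers were chosen with earlier results of these data known, from general knowledge of Rab biology. ETV5 and H3K4me3 values were given for the 3 members of highest ETV5 fold in each role, for all members of the lysosome-related organelle and secretion roles and for members lacking a peak, and for the 3 highest partner genes of each class and those without a peak. The lists had no test. Second starts inside Rab7 and Rab34 were passed over when promoters were printed. Alternatives were windows of 1 and 20 kb, gene ends only, the summit in place of any base, −log10 q or fold of at least 10, nearest-start assignment, an overlap of at least 50% and start distances of 500 bp and 5 kb.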

Additional observations from a re-analysis of the deposited data

How the results depend on the processing

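Of 40 alternative settings over these counts and medians, 39 stayed within 1.5 times the count or within the interval of the median. The exception was the number of Rab genes with an ETV5 summit at the start, which fell from 53 to 33 when a fold of at least 10 was required (35.4% of all genes under the same rule). Over the other settings 39 (fold of at least 10, 43.0% of all genes) to 56 (20 kb, 68.6%) Rab genes had an ETV5 peak. H3K4me3 was at 46 (peak given to the nearest start, 51.7% of all genes) to 54 (20 kb, 66.0%). Overlapping peaks were at 44 (−log10 q of at least 10, 48.8% of all genes) to 53 (20 kb, 62.5%). Partner genes with ETV5 ranged from 75 (fold of at least 10, 43.0% of all genes) to 95 (20 kb, 68.6%). The median highest ETV5 fold of the Rab genes with a peak was 17.4 (11.9 to 20.5), against 14.4 for all genes with a peak. It was 11.9 when each peak was given only to the gene with the nearest start and 20.5 with a fold of at least 10. Both values lie at the bounds of that interval. The median widest H3K4me3 peak stayed at 1677 to 1720 bp. The ETV5 depth limits weak peaks, since the start peaks of Rab3b and Rab39 rest on 6 fragments each. No paired analysis was possible because each antibody had 1 library.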
